A study of Mus musculus with 12 samples.

Results

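The genes described here are the mouse cytochromes P450 outside the CYP2C subfamily. They were chosen by symbol, as every gene on the array table written Cyp followed by a family number, a subfamily letter and a gene number, except those starting with Cyp2c. This gave 60 of the 18193 genes on the table, and each was read through whichever of its probe sets had the highest average level on the 12 arrays. Of the 60, 48 reached a log2 level of 5 on at least 2 arrays and were tested, among 15781 genes tested in all. They were sorted by textbook role into 24 genes of xenobiotic metabolism (18 tested), 18 of fatty acid and eicosanoid metabolism (15 tested), 6 of bile acid and cholesterol metabolism (5 tested), 5 of steroid hormone synthesis (all tested), 5 of vitamin D and retinoid metabolism (3 tested) and 2 others (both tested).

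The study profiled total RNA from bipotential mouse embryonic liver (BMEL) cells on Affymetrix whole-genome mouse arrays. BMEL lines are immortal epithelial lines that can be steered towards hepatocytes or bile duct cells. The 2 lines, 9A1 and 14B3, were isolated separately from livers of dpc14 embryos of a CBA/J x C57Bl/6J cross, and the labels name no engineered allele. Each line was sampled in basal culture, after 1 day as aggregates and after 5 days as aggregates, with 2 biological replicates for each combination. A culture therefore has 4 arrays from 2 lines, so line-specific behaviour rests on 2 arrays per culture. Levels below are log2 RMA values, listed for replicate 1 and then replicate 2 of a line. A difference of 1 is a 2-fold change, and levels under 5 are close to the background of the array. In bulk RNA, fewer cells of a type and less RNA per cell cannot be told apart.

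Cytochromes P450 are haem enzymes that insert an oxygen atom into a lipophilic substrate, using electrons passed on from NADPH by a reductase or, in mitochondria, by ferredoxin. In liver the families 1 to 3 mainly clear drugs, toxins and hormones, family 4 hydroxylates the ends of fatty acids and eicosanoids, and families 7, 8 and 27 turn cholesterol into bile acids. Many of the xenobiotic genes are switched on by ligand-activated receptors, such as the pregnane X receptor for Cyp3a genes and the aryl hydrocarbon receptor for Cyp1 genes, and several also mark the maturation of hepatocytes after birth.

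Array medians lay between 6.09 and 6.24. Basal 9A1 replicate 1 stood apart from the other basal arrays: its correlation with its replicate was 0.762 over the 60 P450 genes, where the pairs of the other combinations had 0.936 to 0.992. Over all probe sets the basal 9A1 pair reached 0.952 and the 1 day 9A1 pair 0.949, below the 0.988 to 0.996 of the others. Whether the sample on this array matches its label was not tested, which bears on every basal 9A1 mean and every comparison with basal culture. The hepatocyte markers Alb, Ttr, Apoa1, Cps1 and G6pc were high on it. Tat, Tdo2, Pck1 and Fgb were not above all other basal arrays. The mean of 9 hepatocyte markers was 8.83 on that array, against 5.80 to 6.11 on the other basal arrays, 7.36 to 7.64 at 1 day and 9.33 to 10.6 at 5 days. The mean of 8 markers of absorptive gut epithelium followed the same course. It was 9.87 on that array, 6.65 to 7.0 on the other basal arrays, 7.87 to 8.63 at 1 day and 10.6 to 11.1 at 5 days. In this list Cdx1, Cdx2 and Slc5a1 were not above all other basal arrays on that array. At 5 days 7 of 9 hepatocyte markers and 6 of 8 gut markers had risen, beside 16.9% of all genes. Of 4 bile duct markers, Cftr rose by 3.26 (adjusted p = 0.0037) and Krt7 fell by 1.72 (adjusted p = 0.0119), Sox9 did not pass, and Krt19 stood between 13.6 and 14.0 on all 12 arrays. None of the tested blood, endothelial or stellate cell markers was called at 5 days. The endothelial list averaged 5.97 on basal 9A1 replicate 1, against 4.90 to 5.18 on the other basal arrays, with Cdh5 at 7.65 and Vwf at 7.25 on it. Of 5 macrophage markers, 1 was higher and 1 lower. The part that these marker changes have in the P450 results was not tested. The 1 day 9A1 replicate 2 array had the narrowest spread of levels, an SD of 2.13 where the others had 2.25 to 2.33. For the P450 genes on which basal 9A1 replicate 1 was far above the other basal arrays, the change is given with and without it.

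The 250 bases upstream of the start given in the RefSeq promoter table (GRCm38.p6) are shown for 5 genes whose changes the results turn on. They are Cyp3a11 and Cyp3a25 of one cluster, both higher at 5 days, Cyp2d26, which rose most, and the pair Cyp1a1 and Cyp1b1, which share a receptor and moved in opposite directions. For a gene with several starts the first one listed was used. The Cyp1a1 window lies inside the span given for that gene, and the Cyp2d26 window overlaps the span of its gene. Each is written 5′ to 3′ on the strand of the gene. Capitals mark the letters AGGTCA, the hexamer read by nuclear receptors, in the Cyp3a windows, GTTAAT (part of the HNF1 site) and TATAAA in the Cyp2d26 window, and GCGTG (the core read by the aryl hydrocarbon receptor) and TATAAA in the Cyp1 windows, each searched on both strands. A match on the other strand is shown as its reverse complement.
Cyp3a11, chr5:145879855-145880104, minus strand: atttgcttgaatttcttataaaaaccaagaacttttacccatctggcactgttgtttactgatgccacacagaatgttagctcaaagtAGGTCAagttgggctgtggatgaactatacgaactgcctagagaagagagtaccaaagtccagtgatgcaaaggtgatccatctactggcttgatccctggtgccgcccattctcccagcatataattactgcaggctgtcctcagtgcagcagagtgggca
Cyp3a25, chr5:146009619-146009868, minus strand: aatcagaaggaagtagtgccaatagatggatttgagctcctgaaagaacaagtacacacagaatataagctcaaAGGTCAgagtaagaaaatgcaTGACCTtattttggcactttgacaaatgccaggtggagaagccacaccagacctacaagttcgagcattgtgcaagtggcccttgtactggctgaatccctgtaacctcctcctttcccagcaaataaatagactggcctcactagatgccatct
Cyp2d26, chr15:82794246-82794495, minus strand: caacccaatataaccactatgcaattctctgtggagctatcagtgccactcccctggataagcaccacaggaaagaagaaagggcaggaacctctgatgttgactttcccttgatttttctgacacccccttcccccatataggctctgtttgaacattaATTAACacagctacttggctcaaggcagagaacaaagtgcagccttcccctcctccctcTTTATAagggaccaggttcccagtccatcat
Cyp1a1, chr9:57697363-57697612, plus strand: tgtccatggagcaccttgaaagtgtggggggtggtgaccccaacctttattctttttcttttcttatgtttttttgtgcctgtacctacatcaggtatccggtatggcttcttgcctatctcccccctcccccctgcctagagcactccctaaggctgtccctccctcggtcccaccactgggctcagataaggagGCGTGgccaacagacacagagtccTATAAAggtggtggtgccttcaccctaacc
Cyp1b1, chr17:79715062-79715311, minus strand: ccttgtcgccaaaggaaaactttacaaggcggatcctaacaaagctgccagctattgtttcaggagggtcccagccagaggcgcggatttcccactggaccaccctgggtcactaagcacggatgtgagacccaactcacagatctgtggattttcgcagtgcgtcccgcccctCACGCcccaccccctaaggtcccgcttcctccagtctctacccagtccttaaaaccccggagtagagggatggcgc
AGGTCA occurred 1 time before Cyp3a11 and 2 times before Cyp3a25. GCGTG occurred 1 time before each Cyp1 gene, and TATAAA before Cyp1a1 but not before Cyp1b1 in these windows. Over 32851 windows of the same length AGGTCA was found in 14%, GCGTG in 28.2%, TATAAA in 12.4% and GTTAAT in 6.43%. Of the 42 P450 genes with a window, 8 held AGGTCA, 11 held GCGTG, 14 held TATAAA and 1 held GTTAAT. A match in letters is not a measured binding site.

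After 5 days as aggregates, P450 genes of xenobiotic and fatty acid metabolism were higher than in basal culture, and those of bile acid and steroid hormone synthesis did not pass the test. Of 48 tested members 21 were higher and 2 lower (limma, Benjamini-Hochberg adjusted p under 0.05 over all genes tested), or 43.8% and 4.17%, beside 16.9% and 18.5% of all genes tested. In either direction 23 members (47.9%) were called, beside 35.4% of all genes. Of the tested members 4 passed the filter through the 5 day arrays alone (Cyp2d10, Cyp2d34, Cyp2j9 and Cyp3a25), and 3 of these are among the 21. Without the filter on low levels, 20 of all 60 members were higher and 2 lower, or 33.3% and 3.33%, beside 14.3% and 15.7% of 18193 genes. By family, 12 of 18 xenobiotic genes were higher and 1 lower, with a median change of 0.93. These 12 and the median include Cyp2d10, Cyp2d34 and Cyp3a25, which the filter admitted through the 5 day arrays alone. Of 15 fatty acid genes 8 were higher and none lower, with a median of 0.49. None of 5 bile acid, 5 steroid and 3 vitamin D and retinoid genes was called in this comparison, with medians of 0.02, 0.11 and -0.01, beside 0.01 over all genes tested. On 19 of the 60 members every 5 day array lay above every basal array (31.7%, beside 16.6% of all genes), and on 1 every 5 day array lay below (1.67%, beside 17.9%).

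**Figure D1:**
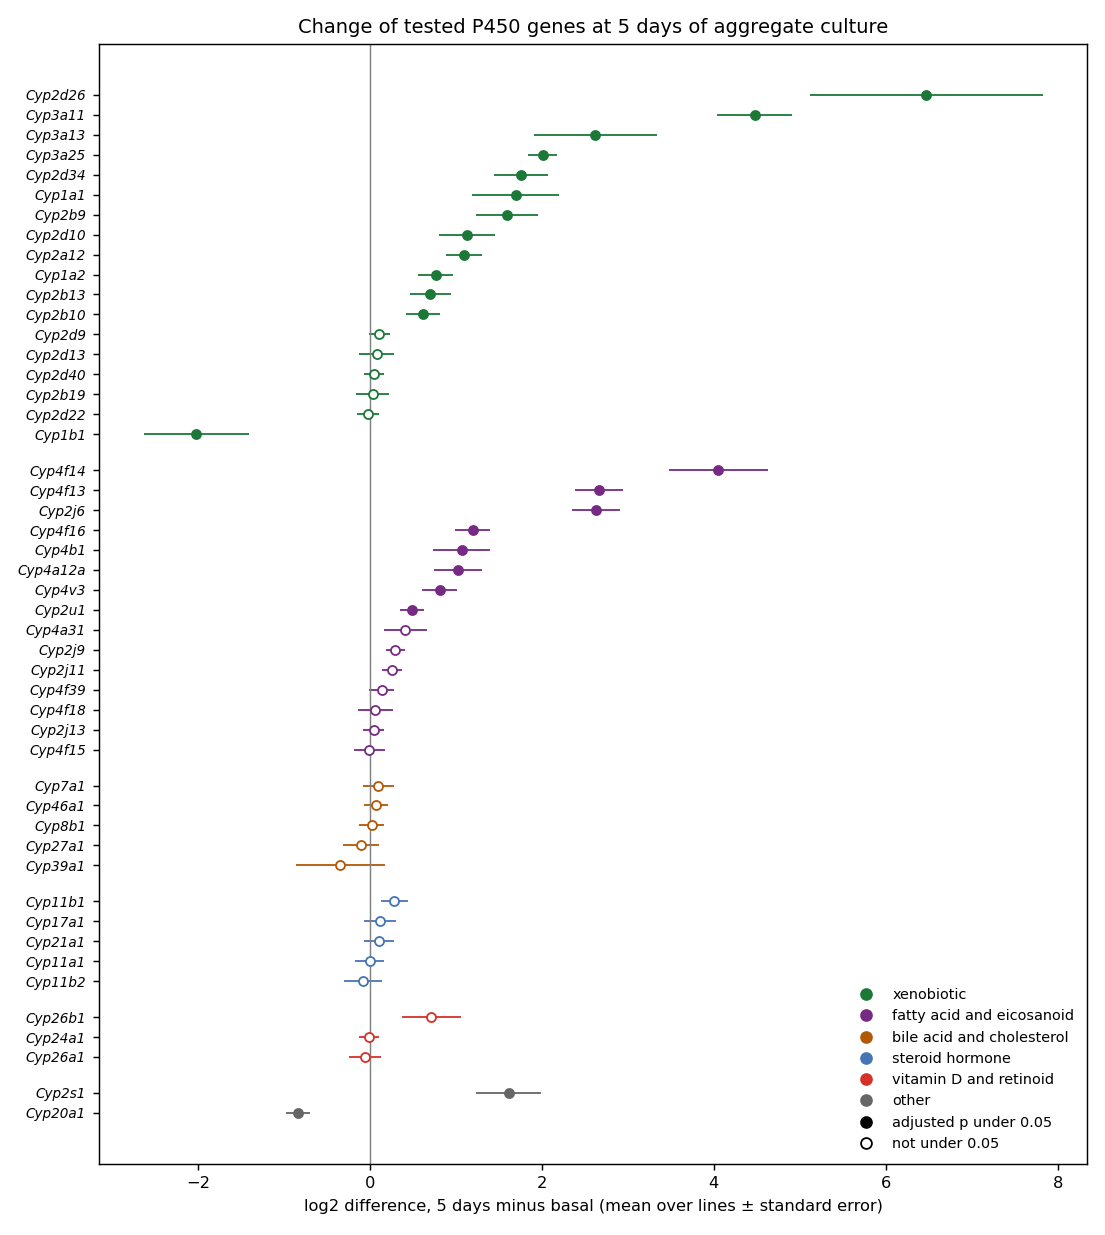
Change of the 48 tested P450 genes, 5 days as aggregates minus basal culture, on the log2 scale (points, mean over both lines; bars, limma standard error; 4 arrays per culture). Filled points passed an adjusted p of 0.05: 12 xenobiotic and 8 fatty acid genes lie to the right of 0 and Cyp1b1 and Cyp20a1 to the left, while all bile acid and steroid points are open and lie near 0. The filled xenobiotic points Cyp2d10, Cyp2d34 and Cyp3a25 entered the test through the 5 day arrays alone.

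Basal 9A1 replicate 1 bears on most of these rises. Of the 21 members that were higher, 19 had their highest basal level on that array, and on 7 it exceeded the lowest 5 day array. No share of all genes stands beside either count, so they do not set the P450 genes apart from other genes. Of all 60 members, called or not, 29 had their highest basal level on that array. Without it 22 members were higher and 2 lower (50% in all, beside 40.4% of all genes), and 22 of the 23 calls were shared. Leaving out each array in turn gave between 14 and 26 calls (29.2% to 54.2%, beside 26.4% to 43.6% of all genes). The count fell to 15 when basal 9A1 replicate 2 was left out (31.2%, beside 30.8% of all genes). It was 14 and 15 without 14B3 basal replicates 1 and 2 (29.2% and 31.2%, beside 26.4% and 28.2%). Without 14B3 replicates 1 and 2 of the 5 day culture it was 15 and 14 (31.2% and 29.2%, beside 26.6% and 26.8%).

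The Cyp3a genes encode the main drug-oxidising enzymes of liver and intestine and are the classical targets of the pregnane X receptor. Cyp3a11, the major adult hepatic form in mice, lies with 3 other members at chr5:145436309-146009644. It had levels of 5.30 and 4.48 in 9A1 and 4.63 and 4.60 in 14B3 in basal culture, 4.65 and 5.31 in 9A1 and 4.61 and 4.17 in 14B3 at 1 day, and 12.03 and 9.78 in 9A1 and 7.35 and 7.75 in 14B3 at 5 days. The basal and 1 day arrays stayed near the background and every 5 day array lay above all of them, with 9A1 higher than 14B3. The rise at 5 days over basal culture was 4.48 ± 0.44 (22.2-fold, adjusted p = 0.000134). Cyp3a25, a liver form of the same cluster, was below 5 on all 8 basal and 1 day arrays, between 4.05 and 4.53. At 5 days it stood at 7.12 and 6.46 in 9A1 and 5.44 and 5.66 in 14B3, a mean difference of 2.01. It entered the test through the 5 day arrays alone, so this is a description. The other cluster members, Cyp3a16 of fetal and newborn liver and Cyp3a44, did not reach the level for testing. Cyp3a16 was between 3.40 and 3.56 on the basal and 1 day arrays and read 5.13 and 3.60 in 9A1 and 3.86 and 3.67 in 14B3 at 5 days.

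Cyp3a13, a form of liver and gut that lies apart from this cluster at chr5:137892933-137925610, followed another course. Its basal levels were 13.14 and 9.09 in 9A1 and 9.36 and 10.59 in 14B3. At 1 day it read 11.72 and 12.37 in 9A1 and 12.34 and 12.16 in 14B3, and at 5 days 13.06 and 12.82 in 9A1 and 13.34 and 13.46 in 14B3. All aggregates thus lay above 3 of the basal arrays, and basal 9A1 replicate 1 lay among the 5 day arrays. The rise at 5 days was 2.62 ± 0.72 (6.16-fold, adjusted p = 0.0183), and 3.64 without that array (adjusted p = 1.43e-05). Without basal 9A1 replicate 2 it was 1.61. The call was lost when basal 14B3 replicate 1, either 5 day 14B3 array or 5 day 9A1 replicate 1 was left out (changes of 2.31 to 2.65, adjusted p = 0.0505 to 0.0724).

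The Cyp2d genes are a subfamily of drug and amine oxidising enzymes related to human debrisoquine hydroxylase. Of 7 tested members of the cluster at chr15:82370527-82794452, 3 were called higher at 5 days, beside 16.9% of all genes. Cyp2d10 and Cyp2d34 among them entered the test through the 5 day arrays alone. The count is therefore a description of the cluster. Cyp2d26 had the largest change of any member. It read 13.04 and 4.95 in 9A1 and 5.28 and 5.16 in 14B3 in basal culture, 7.74 and 8.19 in 9A1 and 8.20 and 7.96 in 14B3 at 1 day, and 13.78 and 14.08 in 9A1 and 13.37 and 13.08 in 14B3 at 5 days. The 3 cultures separated without overlap except for basal 9A1 replicate 1, which lay close to the 5 day arrays. The change at 5 days was 6.47 ± 1.35 (88.7-fold, adjusted p = 0.00515), and 8.49 without that array (adjusted p = 2.64e-08).

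The other Cyp2d genes counted as higher were at the background of the array in basal culture. Cyp2d34 read 6.64 and 8.35 in 9A1 and 5.58 and 5.43 in 14B3 at 5 days, against 4.98 and 4.67 in 9A1 and 4.54 and 4.75 in 14B3 in basal culture, a mean difference of 1.76. Every 5 day array was above every basal array. Cyp2d10 read 7.33 and 5.68 in 9A1 and 5.03 and 4.84 in 14B3 at 5 days, against 5.00 and 4.41 in 9A1 and 4.41 and 4.54 in 14B3 in basal culture, a mean difference of 1.13. It was high on 1 array, and the difference was 0.72 without 5 day 9A1 replicate 1. Both genes entered the test through the 5 day arrays alone, against basal levels at the background, so their differences are descriptions. The remaining tested members of the cluster, Cyp2d9, Cyp2d13, Cyp2d22 and Cyp2d40, changed by -0.02 to 0.11 and did not pass.

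The Cyp1 genes, Cyp1a1 at chr9:57687928-57703824, Cyp1a2 at chr9:57676937-57683655 and Cyp1b1 at chr17:79706940-79715061, oxidise polycyclic aromatic hydrocarbons and are induced through the aryl hydrocarbon receptor. Cyp1a1, the inducible form, read 5.78 and 4.94 in 9A1 and 4.89 and 5.06 in 14B3 in basal culture, 4.59 and 6.37 in 9A1 and 4.72 and 4.78 in 14B3 at 1 day, and 6.36 and 5.57 in 9A1 and 6.72 and 8.82 in 14B3 at 5 days. Its highest level was on 5 day 14B3 replicate 2, and one 5 day array lay below basal 9A1 replicate 1. The rise at 5 days was 1.70 ± 0.51 (3.24-fold, adjusted p = 0.0268). The call was lost without basal 9A1 replicate 2, either basal 14B3 array, 5 day 14B3 replicate 2 or 5 day 9A1 replicate 1 (changes of 1.17 to 1.74, adjusted p = 0.0644 to 0.0899), and with array weights (adjusted p = 0.0964). Cyp1a2, the constitutive liver form, which lies beside Cyp1a1 on chromosome 9, read 5.49 and 5.45 in 9A1 and 6.76 and 7.02 in 14B3 at 5 days, against 5.70 and 5.34 in 9A1 and 5.35 and 5.28 in 14B3 in basal culture. The higher levels were on the 14B3 arrays. Its change was 0.77 ± 0.21 (adjusted p = 0.017), and the call was lost with any of 4 arrays left out, 5 day 14B3 replicate 2, 5 day 9A1 replicate 1, basal 14B3 replicate 2 and basal 9A1 replicate 2 (changes of 0.68 to 0.75, adjusted p up to 0.0657).

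Cyp1b1, the form of extrahepatic and mesenchymal tissues that also hydroxylates oestradiol, fell. Its levels were 7.67 and 10.20 in 9A1 and 9.72 and 9.57 in 14B3 in basal culture, 11.44 and 9.98 in 9A1 and 10.23 and 10.17 in 14B3 at 1 day, and 8.30 and 6.19 in 9A1 and 7.08 and 7.52 in 14B3 at 5 days. The 5 day arrays lay below all 1 day arrays, and overlapped the basal arrays through basal 9A1 replicate 1 alone. Relative to basal culture it fell by 2.02 ± 0.61 (4.05-fold, adjusted p = 0.0291), and relative to 1 day by 3.19 ± 0.61 (9.09-fold, adjusted p = 0.00669). Without basal 9A1 replicate 1 the change from basal culture was -2.65 (adjusted p = 0.00275). That call was lost without basal 9A1 replicate 2, either basal 14B3 array, 5 day 9A1 replicate 2 or either 5 day 14B3 array (changes of -2.13 to -1.39, adjusted p = 0.0616 to 0.107), and with the replicate number as a block (adjusted p = 0.0634). Of its other probe sets 1 changed by -2.24 and 1, near the background, by -0.04.

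The Cyp2b genes are the phenobarbital-inducible enzymes, with Cyp2b10 the usual reporter of the constitutive androstane receptor. Of 4 members at chr7:25897658-26772630, 3 rose at 5 days, beside 16.9% of all genes. Cyp2b9 read 6.42 and 6.98 in 9A1 and 7.23 and 7.22 in 14B3 at 5 days, against 6.73 and 4.82 in 9A1 and 5.08 and 4.85 in 14B3 in basal culture. All 5 day arrays were above 3 basal arrays, and 1 was below basal 9A1 replicate 1. The change was 1.59 ± 0.36 (3.01-fold, adjusted p = 0.00782), and 2.07 without that array. Cyp2b10 read 6.75 and 7.15 in 9A1 and 7.24 and 7.47 in 14B3 at 5 days, against 6.46 and 6.50 in 9A1 and 6.42 and 6.75 in 14B3 in basal culture, a change of 0.62 ± 0.19 (adjusted p = 0.0344). Its other 2 probe sets both changed by 1.76, and both have the suffix of sets that may read related transcripts. The Cyp2b10 call was lost without either basal 9A1 array, either basal 14B3 array, 5 day 9A1 replicate 2 or either 5 day 14B3 array (changes of 0.52 to 0.70, adjusted p = 0.0514 to 0.129). Cyp2b13 changed by 0.70 ± 0.24 (adjusted p = 0.0448), a call lost without any one of 9 arrays, namely basal 9A1 replicate 2, both basal 14B3, both 1 day 14B3, both 5 day 9A1 and both 5 day 14B3 arrays (changes of 0.59 to 0.76, adjusted p = 0.0678 to 0.132), and under the block (adjusted p = 0.0695). Cyp2b19, known from skin, changed by 0.03 ± 0.19.

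Cyp2a12, a steroid hydroxylase of mouse liver, read 8.26 and 7.50 in 9A1 and 6.22 and 6.07 in 14B3 at 5 days, against 6.06 and 5.81 in 9A1 and 5.99 and 5.82 in 14B3 in basal culture. Every 5 day array was above every basal array, by a wide margin in 9A1 and a narrow one in 14B3. The change over both lines was 1.09 ± 0.21 (2.13-fold, adjusted p = 0.0036). Of the xenobiotic members below the testing level, Cyp2e1, the ethanol-oxidising enzyme of adult liver, stayed between 4.61 and 4.88 on 11 arrays and read 6.18 on 1 day 9A1 replicate 2. Cyp2f2 of airway cells, Cyp2g1 of olfactory tissue and Cyp2d12 were likewise not tested. On the 12 untested members of all families together, 5 values in all reached 5.

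**Figure D2:**
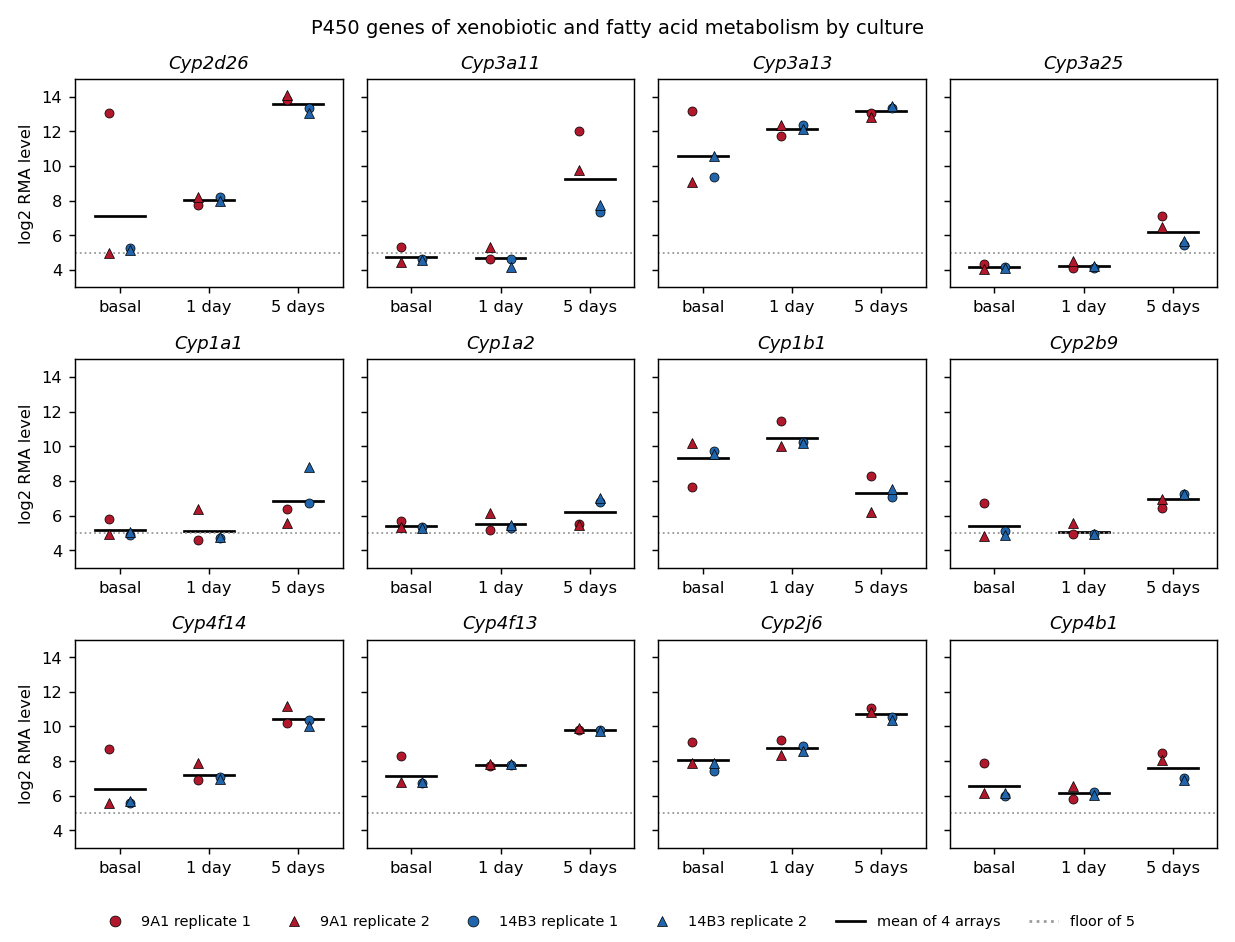
Log2 RMA levels of 12 P450 genes of xenobiotic and fatty acid metabolism in basal culture and after 1 and 5 days as aggregates (red, 9A1; blue, 14B3; circles, replicate 1; triangles, replicate 2; black lines, mean of 4 arrays; dotted line, floor of 5). Cyp2d26 lies between 13.08 and 14.08 at 5 days, with basal 9A1 replicate 1 at 13.04, while Cyp1b1 lies lower at 5 days than at 1 day.

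Among the fatty acid genes the Cyp4f subfamily, whose enzymes hydroxylate leukotrienes and long-chain fatty acids, held the largest rises. In its cluster at chr17:32452697-32947415, 3 of 5 members rose, beside 16.9% of all genes. Cyp4f14, which inactivates leukotriene B, read 8.68 and 5.60 in 9A1 and 5.60 and 5.67 in 14B3 in basal culture, 6.91 and 7.88 in 9A1 and 7.08 and 6.94 in 14B3 at 1 day, and 10.19 and 11.17 in 9A1 and 10.36 and 10.04 in 14B3 at 5 days. The 5 day arrays were above all others. The rise over basal culture was 4.05 ± 0.57 (16.6-fold, adjusted p = 0.000748), and 4.82 without basal 9A1 replicate 1. Cyp4f13 of the same cluster read 8.32 and 6.80 in 9A1 and 6.72 and 6.79 in 14B3 in basal culture, 7.71 and 7.82 in 9A1 and 7.75 and 7.82 in 14B3 at 1 day, and 9.82 and 9.92 in 9A1 and 9.82 and 9.72 in 14B3 at 5 days. The lines and replicates lay close together in the aggregates. Its rise was 2.66 ± 0.28 (6.33-fold, adjusted p = 0.000185), and 3.04 without basal 9A1 replicate 1. Cyp4f16 stood at 9.91 and 10.32 in 9A1 and 10.32 and 10.08 in 14B3 at 5 days, against 9.65 and 8.72 in 9A1 and 8.74 and 8.73 in 14B3 in basal culture, a change of 1.20 ± 0.20 (2.29-fold, adjusted p = 0.00189), and 1.43 without that array. The other cluster members did not pass the test, Cyp4f15 with a change of -0.00 ± 0.18 and Cyp4f39 with 0.14 ± 0.14. Cyp4f18, a leukocyte form on chromosome 8, changed by 0.06 ± 0.20.

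The Cyp2j enzymes make epoxides from arachidonic acid. In the cluster at chr4:96042660-96664171, Cyp2j6, expressed in intestine and liver, was the 1 of 4 tested members that rose, beside 16.9% of all genes. It read 9.09 and 7.91 in 9A1 and 7.43 and 7.87 in 14B3 in basal culture, 9.23 and 8.38 in 9A1 and 8.88 and 8.59 in 14B3 at 1 day, and 11.09 and 10.83 in 9A1 and 10.54 and 10.36 in 14B3 at 5 days. The 5 day arrays were above all others. The change was 2.63 ± 0.28 (6.19-fold, adjusted p = 0.000207), 2.93 without basal 9A1 replicate 1, and a second probe set changed by 4.04. The cluster members Cyp2j9, which entered the test through the 5 day arrays alone, and Cyp2j11 changed by 0.30 ± 0.11 and 0.25 ± 0.12 (adjusted p = 0.0643 and 0.133), and Cyp2j13 by 0.05 ± 0.12.

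In the cluster of Cyp4a, Cyp4b and Cyp4x genes at chr4:115106323-115647721, 2 of 3 tested members rose, beside 16.9% of all genes. They were Cyp4a12a and Cyp4b1. The other, Cyp4a31, changed by 0.41 and did not pass. Cyp4a12a, an arachidonic acid hydroxylase of mouse kidney and liver, read 5.81 and 5.22 in 9A1 and 5.78 and 5.83 in 14B3 at 5 days, against 5.21 and 4.38 in 9A1 and 4.51 and 4.46 in 14B3 in basal culture. The change was 1.02 ± 0.28 (2.03-fold, adjusted p = 0.018), 1.23 without basal 9A1 replicate 1, and the call was lost without basal 9A1 replicate 2, either basal 14B3 array, 5 day 9A1 replicate 1 or either 5 day 14B3 array (changes of 0.81 to 1.03, adjusted p = 0.0506 to 0.0672). Cyp4b1, which oxidises fatty acids and plant toxins, read 8.44 and 8.06 in 9A1 and 7.0 and 6.94 in 14B3 at 5 days, against 7.88 and 6.17 in 9A1 and 5.96 and 6.16 in 14B3 in basal culture. Basal 9A1 replicate 1 was above both 5 day 14B3 arrays. The change was 1.07 ± 0.34 (2.09-fold, adjusted p = 0.034), 1.49 with basal 9A1 replicate 1 left out and 0.64 with basal 9A1 replicate 2 left out. That call was lost without either basal 14B3 array, either 1 day 14B3 array or any of the 4 arrays at 5 days (changes of 0.97 to 1.16, adjusted p = 0.0547 to 0.103), and under the replicate block (adjusted p = 0.0568). Cyp4a14, the classical peroxisome proliferator-induced gene, was between 3.80 and 4.34 on all arrays and was not tested.

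Both remaining fatty acid members that rose did so by less. Cyp4v3, the mouse counterpart of the human gene mutated in Bietti crystalline dystrophy, read 6.55 and 6.12 in 9A1 and 6.62 and 6.44 in 14B3 at 5 days, against 6.05 and 5.31 in 9A1 and 5.51 and 5.61 in 14B3 in basal culture, a change of 0.81 ± 0.20 (1.75-fold, adjusted p = 0.0125). Cyp2u1, a hydroxylase of long-chain fatty acids, changed by 0.49 ± 0.14 (1.40-fold, adjusted p = 0.0224). All 5 day arrays were above all basal arrays for both genes. The Cyp2u1 call was lost with any of 4 arrays left out, 5 day 14B3 replicate 1, 5 day 9A1 replicate 2, basal 14B3 replicate 1 and basal 9A1 replicate 2 (changes of 0.40 to 0.48, adjusted p = 0.0560 to 0.105) and on the mean of its probe sets (0.36, adjusted p = 0.0628).

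The bile acid P450 genes showed no call in any of the 3 culture comparisons. Cyp7a1, the rate-limiting enzyme of bile acid synthesis, read 5.12 and 4.95 in 9A1 and 4.97 and 5.27 in 14B3 in basal culture, 4.85 and 5.70 in 9A1 and 4.83 and 5.09 in 14B3 at 1 day, and 5.20 and 5.18 in 9A1 and 5.14 and 5.18 in 14B3 at 5 days. These levels lie at the background of the array in every culture. The change at 5 days was 0.10 ± 0.18 (adjusted p = 0.772). Cyp8b1, which directs synthesis towards cholic acid, changed by 0.02 ± 0.15 over levels of 5.47 to 6.12. Cyp27a1, the mitochondrial sterol hydroxylase that starts the alternative pathway, read 6.43 and 6.44 in 9A1 and 6.69 and 6.69 in 14B3 at 5 days, against 7.05 and 6.34 in 9A1 and 6.24 and 7.03 in 14B3 in basal culture. Its change was -0.10 ± 0.21 (adjusted p = 0.793), with the 5 day arrays inside the basal range. Cyp7b1, the next enzyme of that pathway, was between 4.44 and 5.01 and was not tested. The oxysterol hydroxylase gene Cyp39a1 changed by -0.34 ± 0.51, with one array of each 9A1 pair in basal and 1 day culture high, at 6.62 and 6.76. The brain cholesterol hydroxylase gene Cyp46a1 changed by 0.07 ± 0.14. At 5 days the family's changes lay between -0.34 and 0.10.

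The steroid hormone P450 genes, which work in adrenal and gonad, likewise gave no call in the culture comparisons, with changes at 5 days from -0.08 to 0.29. Cyp11a1, the side-chain cleavage enzyme that starts steroid synthesis, read 5.45 and 5.33 in 9A1 and 5.48 and 5.62 in 14B3 in basal culture, 6.24 and 5.53 in 9A1 and 5.94 and 5.68 in 14B3 at 1 day, and 5.35 and 5.64 in 9A1 and 5.48 and 5.38 in 14B3 at 5 days. Its 1 day change of 0.38 ± 0.16 did not pass (adjusted p = 0.176), but was called without 1 day 9A1 replicate 2 (0.56, adjusted p = 0.0177). Cyp17a1, needed for cortisol and sex steroids in man, changed by 0.12 ± 0.19 at 5 days. The adrenal hydroxylase genes Cyp21a1, Cyp11b1 and Cyp11b2 changed by 0.11 ± 0.18, 0.29 ± 0.16 and -0.08 ± 0.22.

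In the retinoid group Cyp26b1, which degrades retinoic acid, was the exception. It read 8.34 and 6.85 in 9A1 and 7.52 and 7.07 in 14B3 in basal culture, 6.19 and 7.20 in 9A1 and 6.43 and 6.84 in 14B3 at 1 day, and 6.70 and 7.20 in 9A1 and 9.47 and 9.27 in 14B3 at 5 days. The 14B3 arrays at 5 days were above all others, and the 9A1 arrays at 5 days were not. Over both lines the change from 1 day to 5 days was 1.50 ± 0.35 (2.82-fold, adjusted p = 0.0149), lost without 5 day 9A1 replicate 2 or without replicate 1 of 14B3 at 1 or 5 days (highest adjusted p = 0.0636). Against basal culture the change was 0.71 ± 0.35 (adjusted p = 0.152), and 1.09 without basal 9A1 replicate 1 (adjusted p = 0.0122). Cyp26a1, the liver form of this enzyme, changed by -0.06 ± 0.19, and Cyp24a1, which inactivates vitamin D, by -0.01 ± 0.12. Cyp2r1 and Cyp27b1, which activate vitamin D, were not tested, with Cyp2r1 between 3.68 and 3.99.

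**Figure D3:**
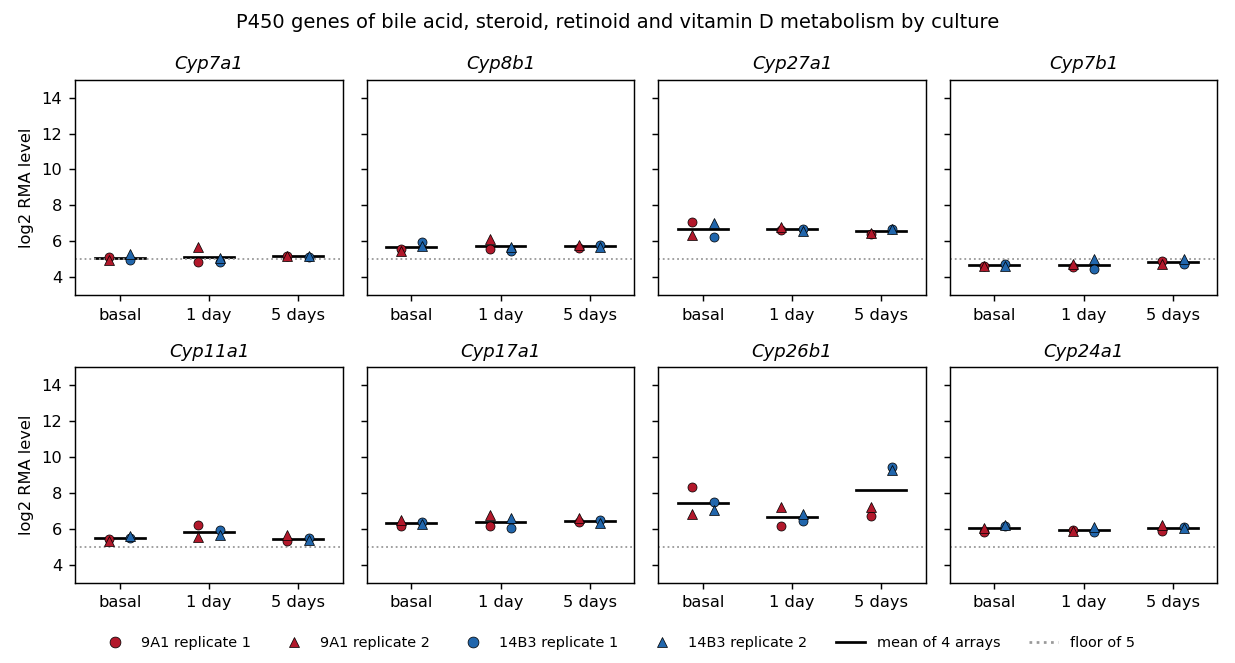
Log2 RMA levels of 8 P450 genes of bile acid, steroid, retinoid and vitamin D metabolism in the 3 cultures (symbols as for the xenobiotic genes: red, 9A1; blue, 14B3; circles, replicate 1; triangles, replicate 2; black lines, mean of 4 arrays; dotted line, floor of 5). Cyp7a1 and Cyp7b1 stay near 5 in all cultures, and Cyp26b1 reaches 9.47 and 9.27 in 14B3 at 5 days.

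Both members outside these roles changed. Cyp2s1, an epithelial form of skin, airway and gut, read 12.05 and 12.94 in 9A1 and 12.04 and 11.54 in 14B3 at 5 days, against 11.94 and 10.06 in 9A1 and 9.83 and 10.29 in 14B3 in basal culture. Its change was 1.61 ± 0.38 (3.06-fold, adjusted p = 0.00913), and 2.08 without basal 9A1 replicate 1. Cyp20a1, an orphan P450 without a settled substrate, fell in both aggregate cultures. It read 10.17 and 10.37 in 9A1 and 10.65 and 10.40 in 14B3 in basal culture, 9.96 and 9.75 in 9A1 and 10.03 and 9.62 in 14B3 at 1 day, and 9.51 and 9.31 in 9A1 and 9.72 and 9.69 in 14B3 at 5 days. No aggregate array reached the lowest basal array. The changes were -0.55 ± 0.14 at 1 day (adjusted p = 0.0318) and -0.84 ± 0.14 at 5 days (1.79-fold, adjusted p = 0.00179), and its other 2 probe sets also fell at 5 days, by 0.63 and 0.50.

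After 1 day as aggregates Cyp20a1 was the 1 member called against basal culture, or 2.08% of those tested, beside 14% of all genes (5.25% higher, 8.8% lower). Its 1 day call was lost without basal 9A1 replicate 2, either basal 14B3 array, 1 day 14B3 replicate 2 or either 5 day 14B3 array (changes of -0.62 to -0.45, adjusted p = 0.0603 to 0.143), with array weights (adjusted p = 0.14) and under the replicate block (adjusted p = 0.0569). By unadjusted p under 0.05 the count was 5, a threshold at which all genes were not counted. The outcome depended on basal 9A1 replicate 1: without it 8 members were called (16.7%, beside 22.6% of all genes), 7 of them higher. Cyp2d26 then rose by 2.94, Cyp3a13 by 2.61, Cyp4f14 by 1.58, Cyp4f13 by 1.00, Cyp2j6 by 0.99, Cyp4v3 by 0.70 and Cyp4f16 by 0.54 (adjusted p of 3.55e-05 to 0.0309). Without basal 9A1 replicate 2, which leaves that array as the sole basal 9A1 sample, 5 were called (10.4%, beside 13.9% of all genes), and Cyp2d26 changed by -1.10. Cyp3a11 and Cyp3a25 showed no rise at 1 day under either setting, with changes of 0.14 and 0.15 without basal 9A1 replicate 1 (adjusted p = 0.898 and 0.694). Without 1 day 9A1 replicate 1 the count was 7 (14.6%, beside 30.4% of all genes), and without 1 day 9A1 replicate 2 it was 2 (4.17%, beside 17.1%).

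Between 1 day and 5 days 19 members changed, 18 of them higher and Cyp1b1 lower, or 37.5% and 2.08%, beside 11.7% and 10% of all genes and 21.7% in either direction. This comparison does not use the basal arrays except for the estimate of the spread. By family 9 xenobiotic and 7 fatty acid genes, Cyp26b1 and Cyp2s1 were higher. The 9 include Cyp2d10, Cyp2d34 and Cyp3a25, which entered the test through the 5 day arrays alone. Cyp2d26 rose by 5.55 ± 1.35 (adjusted p = 0.0183), Cyp3a11 by 4.54 ± 0.44 (adjusted p = 0.000382) and Cyp4f14 by 3.24 ± 0.57 (adjusted p = 0.00451). The Cyp2d26 call was lost without either 1 day 14B3 array, 5 day 9A1 replicate 2 or either 5 day 14B3 array (highest adjusted p = 0.0655), with a change that stayed between 5.44 and 5.67. Cyp3a13 did not pass, at 1.02 ± 0.72 (adjusted p = 0.388), and did without basal 9A1 replicate 1 (1.02, adjusted p = 0.0157). Leaving out each array in turn gave 10 to 23 calls (20.8% to 47.9%, beside 11.5% to 31.4% of all genes).

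The lines were compared as 9A1 minus 14B3. Averaged over the cultures, none of 48 members passed, beside 0.272% of all genes at the same adjusted p. The lowest adjusted p was that of Cyp2a12 (0.19), at 0.72 ± 0.17. The difference between the lines in their response was not called for any member either. By adjusted p 0% of all genes were called at 1 day and 0.038% at 5 days. By unadjusted p under 0.05 the members numbered 7 between lines, 0 for the 1 day response and 6 for the 5 day response. All genes were not counted at unadjusted p, so these numbers have no share beside them. For some genes the line means lay apart at 5 days. Cyp3a11 averaged 10.91 in 9A1 and 7.55 in 14B3, and its change from basal culture was 6.02 in 9A1 and 2.93 in 14B3, a difference of 3.08 ± 0.87 (adjusted p = 0.857). The Cyp2a12 change was 1.95 for 9A1 and 0.24 for 14B3, which differ by 1.71 ± 0.42 (adjusted p = 0.609). The Cyp26b1 change was -0.64 for 9A1 and 2.07 for 14B3, which differ by -2.72 ± 0.69 (adjusted p = 0.646). With basal 9A1 replicate 2 left out, which makes the array that stands apart the sole basal 9A1 sample, 5 members were called between lines and 6 for the difference at 5 days (10.4% and 12.5%, beside 5.11% and 4.48% of all genes).

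**Figure D4:**
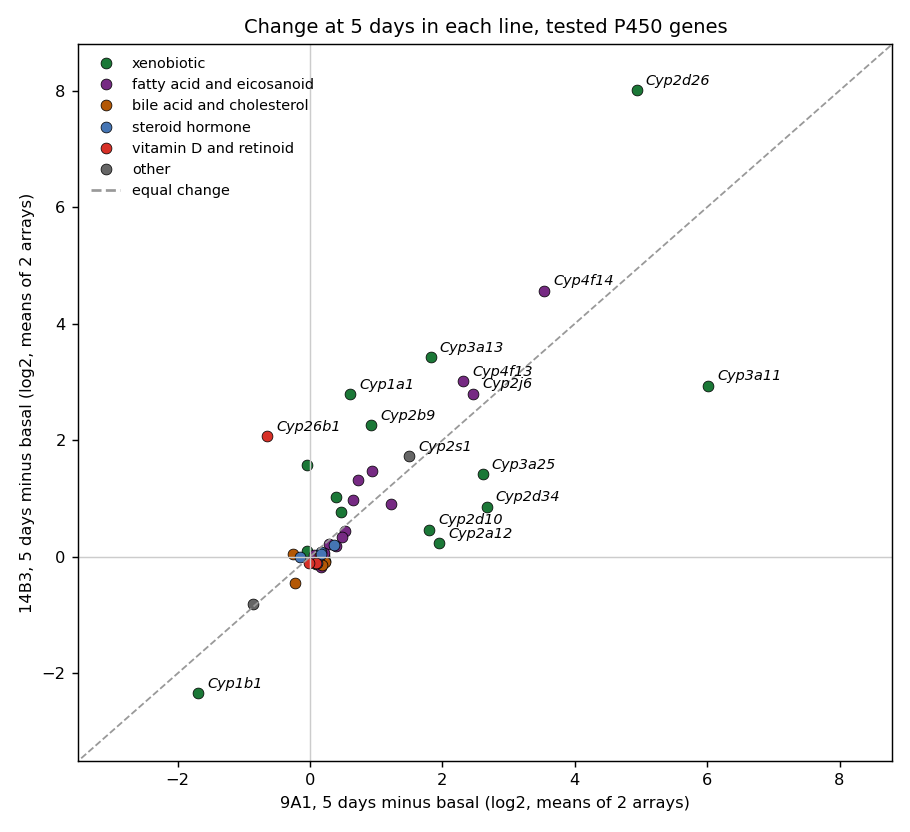
Change of each tested P450 gene at 5 days over basal culture in 9A1 (horizontal axis) and in 14B3 (vertical axis), on the log2 scale, as differences of means of 2 arrays, coloured by family. The dashed line marks equal change: Cyp3a11 lies furthest below it at 6.02 and 2.93, and Cyp2d26 above it at 4.94 and 8.01, where the 9A1 value includes the basal array that stands apart.

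Genes that serve or regulate P450 enzymes were read from 3 lists by role. Among receptors and factors that control P450 genes, 9 of 14 tested members were higher at 5 days and none lower, beside 16.9% and 18.5% of all genes, with a median change of 0.96 beside 0.01. Nr1i2, the pregnane X receptor, read 8.78 and 6.41 in 9A1 and 6.47 and 7.55 in 14B3 in basal culture, 8.81 and 8.94 in 9A1 and 9.24 and 9.15 in 14B3 at 1 day, and 10.34 and 10.29 in 9A1 and 10.16 and 10.30 in 14B3 at 5 days. The change was 1.73 ± 0.45 at 1 day (adjusted p = 0.033) and 2.97 ± 0.45 at 5 days (adjusted p = 0.00102). Its 1 day call was lost with any one of 8 arrays left out, namely basal 14B3 replicate 1, 1 day 9A1 replicate 2, both 1 day 14B3 arrays and all 4 arrays at 5 days (changes of 1.46 to 1.75, adjusted p = 0.0546 to 0.137), and with array weights (adjusted p = 0.0869). With basal 9A1 replicate 1 left out it was 2.32, with replicate 2 left out 1.14, and it was called in both cases. Ppara, the receptor of peroxisome proliferators that controls Cyp4a genes, changed by 3.13 ± 0.52 at 5 days (adjusted p = 0.00165), and Nr1h4, the bile acid receptor, by 2.16 ± 0.38 (adjusted p = 0.0021). Without basal 9A1 replicate 1 the 5 day changes of Nr1i2, Ppara and Nr1h4 were 3.56, 3.83 and 2.61. Ahr, the aryl hydrocarbon receptor, changed by -0.59 ± 0.28 and did not pass (adjusted p = 0.138). All 4 arrays at 5 days, between 9.55 and 9.92, lay below the basal arrays. It was called lower with either 1 day 9A1 array left out (adjusted p = 0.00423 and 0.00433).

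The list of electron donors and haem supply also holds Pgrmc1 and Hmox1. Of its 13 tested genes 9 were higher at 5 days and none lower, beside 16.9% and 18.5% of all genes. The median change was 0.72 beside 0.01. Cyb5b and Cyb5a, the cytochromes b5 that pass electrons to P450 enzymes, changed by 1.23 ± 0.19 (adjusted p = 0.00119) and 0.88 ± 0.10 (adjusted p = 0.000218). Pgrmc1, a haem-binding partner of P450 enzymes, changed by 0.97 ± 0.11 (adjusted p = 0.000279). Alas1, the rate-limiting enzyme of haem synthesis in liver, changed by 0.77 ± 0.15 (adjusted p = 0.00392). Por, the main P450 reductase, was not analysed here. At 1 day 2 of the 13 were higher and 1 lower, beside 5.25% and 8.8% of all genes. They were Cyb5a at 0.59 (adjusted p = 0.0045), Fech, the last enzyme of haem synthesis, at 0.60 (adjusted p = 0.0123), and Cpox, which acts before it, at -1.26 (adjusted p = 0.00418), of which Fech and Cpox were named after their values were seen.

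Of the bile acid genes outside the P450 family 9 of 14 tested were higher at 5 days and none lower, beside 16.9% and 18.5% of all genes, with a median of 0.76 beside 0.01. The others did not pass (adjusted p = 0.169 to 0.695) and were named after their values were seen. Abcb11, the bile salt exporter, changed by 0.27, the conjugation genes Baat and Slc27a5 by 0.16 and 0.14, Akr1c6 by -0.09 and Ch25h by -0.11. Abcc2, the canalicular exporter of conjugated bile pigments and bile acids, read 11.90 and 11.83 in 9A1 and 11.75 and 11.94 in 14B3 at 5 days, against 9.64 and 5.24 in 9A1 and 4.75 and 5.11 in 14B3 in basal culture, a change of 5.67 ± 0.75 (adjusted p = 0.000546). Scp2 and Acox2, peroxisomal genes of side-chain shortening, changed by 2.66 ± 0.33 (adjusted p = 0.000408) and 2.52 ± 0.47 (adjusted p = 0.00289). On all 3 of these genes basal 9A1 replicate 1 was the highest basal array, and without it the changes were 6.77 for Abcc2, 3.12 for Scp2 and 3.06 for Acox2.

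**Figure D5:**
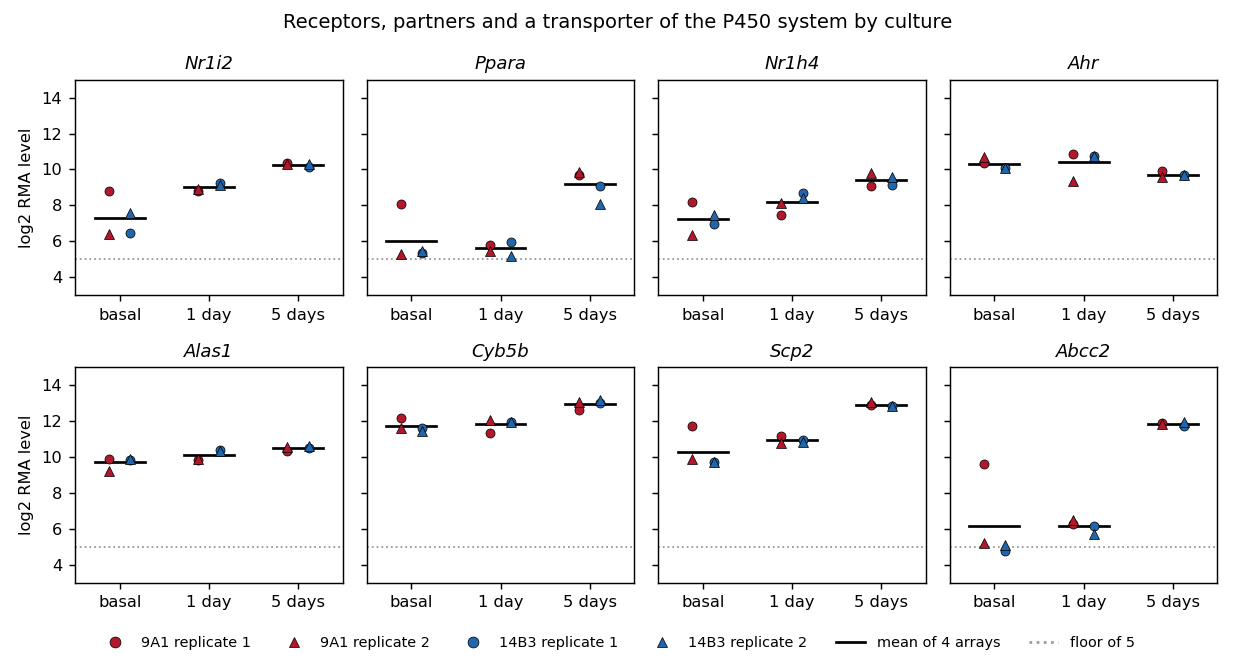
Log2 RMA levels of receptors, partners and a transporter of the P450 system in the 3 cultures (red, 9A1; blue, 14B3; circles, replicate 1; triangles, replicate 2; black lines, mean of 4 arrays; dotted line, floor of 5). Nr1i2, Nr1h4, Ppara and Abcc2 lie above all their basal levels at 5 days, and the 4 Ahr levels at 5 days lie below all basal levels.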

How the data were processed

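Expression was measured on 12 arrays, 1 per RNA sample. The deposited values are log2 levels per probe set from RMA; the submitters' processing notes name R 2.3.1. The number of arrays limits the precision. Replicates are biological per the design text. Of 45101 probe sets, 34945 name 1 gene in the platform annotation, 932 several, 9160 none and 64 are controls; those with 1 gene were used. Each of 18193 genes was read by its probe set with the highest mean, and genes at a log2 level of 5 or more on at least 2 arrays were tested (15781). Means of the 6 line and culture combinations were fitted with limma 3.58.1 in R 4.3.3 (empirical Bayes with a variance trend), and culture contrasts average the lines. P-values were adjusted by Benjamini-Hochberg over all genes tested, and a call is an adjusted p under 0.05. Errors after ± are limma standard errors. The script was tested on simulated data. Cyp19a1 and Cyp4a10 and 4 P450 probe sets that name several genes were not used here. Named genes are members called in a culture comparison with the same sign in both lines (up to 20 per comparison), well-known members of each family whether called or not, and from each partner list the 3 called genes with the largest change at 5 days plus Alas1, Nr1i2, Ahr and Nr1h4. Other members of the same gene clusters or families were named after their values were seen, to complete the counts. The members and lists were chosen with earlier results of these data known. Alternatives covered the filter, the probe set rule, centring, quantile normalization, array weights, the variance trend, the replicate number as a block and each array left out; leaving out both 9A1 arrays that stand apart was added after seeing the data. Whether the replicate numbers pair the samples could not be settled, and the main fit does not use them. In 9A1, deviations of same-numbered samples correlated at -0.303 (1 day and basal), -0.192 (5 days and basal) and 0.376 (5 days and 1 day). In 14B3 the correlations were -0.0969, -0.0715 and -0.0178.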

Additional observations from a re-analysis of the deposited data

Results flagged for a closer look

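In a group of 4 arrays, a highest or lowest level was picked out where its gap to the next array took up more of the group's range than Dixon's critical value for 4 arrays. Of 105 groups tested 18 were picked out. The critical value picks out about 1 in 20 groups only where the 4 arrays are independent draws from the same normal distribution. Each group here pools both lines, and the groups share the same arrays and hold genes named partly for their calls. The count of 18 therefore cannot be set against that rate. Basal 9A1 replicate 1 supplied 8 of the 18. It was the highest basal array for Cyp2d26 (13.0), Cyp4f16 (9.65), Cyp4f14 (8.68), Cyp4f13 (8.32), Cyp4b1 (7.88), Cyp2b9 (6.73), Cyp1a2 (5.70) and Cyp4a12a (5.21). The 1 day 9A1 replicate 2 array supplied 4, as the highest 1 day array for Cyp2a12 (6.46), Cyp1a1 (6.37), Cyp2e1 (6.18) and Cyp2b9 (5.58). Cyp1b1 was highest at 1 day on 9A1 replicate 1 (11.4). Cyp2u1 was highest in basal culture on 14B3 replicate 2 (6.43), and Cyp7b1 on 14B3 replicate 1 (4.72). At 5 days Cyp4a12a was lowest on 9A1 replicate 2 (5.22), Cyp2r1 was highest on 9A1 replicate 2 (3.85) and Cyp4a14 was highest on 14B3 replicate 2 (4.24). The levels of Cyp2r1, Cyp4a14 and Cyp7b1 are below the level for testing.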

How the results depend on the processing

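The 23 P450 calls at 5 days over basal culture became 20 to 24 under other filters, probe set rules, scalings, weights and the block. Over all genes the calls went from 5591 to between 5068 and 6684 in these settings. The lowest P450 count, 20, came under the replicate block. The P450 calls became 27 without both 9A1 arrays that stand apart (56.2%, beside 51.4% of all genes). With 1 array left out they became 14 to 26 (29.2% to 54.2%, beside 26.4% to 43.6% of all genes). Over all genes 3430 calls of 5 days over 1 day became 2694 to 3926 under the same other settings. The 19 P450 calls became 15 to 20 (15 under the block). Without both arrays they were 26 (54.2%, beside 42.4% of all genes). With 1 array left out they were 10 to 23 (20.8% to 47.9%, beside 11.5% to 31.4% of all genes). Over all genes 2217 calls at 1 day became 1283 with array weights and 1520 under the replicate block. The 1 P450 call at 1 day became 0 with array weights and 0 under the replicate block. It became 10 without both arrays (20.8%, beside 33.6% of all genes). With 1 array left out it became 0 to 8 (0% to 16.7%, beside 5.41% to 30.4% of all genes). Between the lines, 0 calls became 3 without both arrays (6.25%, beside 10.6% of all genes). With 1 array left out they became 0 to 5 (0% to 10.4%, beside 0.0127% to 5.11% of all genes). The line difference at 1 day gave 0 to 5 and that at 5 days 0 to 6 with 1 array left out, and 1 at 5 days without both arrays. Calls over all genes shifted in these settings as well, and the cause of the shifts was not tested. Direction turned for Cyp2d26 at 1 day, at 0.92 with all arrays and -1.10 to 2.94 with 1 left out (-1.10 without basal 9A1 replicate 2), and for Abcc2 at 1 day, at -0.02 with all arrays, -1.12 to 1.09 with 1 left out (1.09 without basal 9A1 replicate 1) and 1.04 without both arrays. Of 61 called changes of named genes, 38 kept their call with any 1 array left out. Levels near 5 are close to the background of the array, where changes are hard to see, and 12 of the 60 members could not be tested.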
